A study of Mus musculus with 73 samples.

Results

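The tumour suppressor p53 and 9 genes that it is known to switch on were followed through RNA-seq libraries of early mouse embryos. The 10 genes were chosen by name, with earlier results of these data known. They are Trp53, which encodes p53, Cdkn1a, Mdm2, Ccng1, Btg2, Sesn1, Sesn2, Gadd45a, Plk2 and Phlda3, and each was found by its symbol among the 25220 symbols of the deposited expression table. Expression was given as FPKM, the fragments counted per kilobase of gene and scaled to a common total per library. In all, 3 groups were available, with 3 libraries of p150DN embryos at the 8-cell stage, 2 libraries of EGFP blastocysts and 3 libraries of EGFP embryos at the 8-cell stage. p150DN is a dominant-negative form of p150, the large subunit of the histone chaperone CAF-1, which deposits histones behind the replication fork, and EGFP is the green fluorescent protein used as its control. All groups shared the hybrid C57BL/6 / C3H background and culture in KSOM medium. The labels state neither how p150DN or EGFP was introduced nor how many embryos went into a library.

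p53 is a transcription factor that cells hold at low protein levels through Mdm2 and that accumulates after DNA damage and other stress. Its targets halt the cell cycle, slow growth signalling, repair DNA or trigger cell death, and the target Mdm2 closes a feedback loop by marking p53 for destruction. Much of this control acts on the p53 protein, which RNA-seq does not measure. Loss of Mdm2 is lethal to mouse embryos unless p53 is removed as well.

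Between 16578221 and 20374198 fragments were counted per p150DN library, 19361805 and 22488477 in the blastocyst libraries and between 19337577 and 20823283 per EGFP 8-cell library. The p150DN libraries detected 18412, 20465 and 21282 genes above 0 FPKM in replicates 1, 2 and 3, against 17310 to 18402 genes in EGFP 8-cell libraries. Chaf1a, the gene of p150, stood at 165 to 254 FPKM in p150DN libraries, against 26.5 to 27.2 FPKM in blastocysts and 27.7 to 30.2 FPKM in EGFP 8-cell embryos. A value per gene does not separate the embryo's own Chaf1a RNA from introduced RNA. Chaf1a also shares 982 bases with the antisense gene Ubxn6, which stood at 17.2 to 24.3 FPKM over all 8 libraries, and with the strand setting unknown the level of Chaf1a is uncertain. RNA of the follicle cells that surround the egg was near 0. The summed level of 8 cumulus and granulosa cell markers was 0.360 to 1.26 FPKM in p150DN libraries, 0.401 to 0.408 FPKM in blastocysts and 0.125 to 0.628 FPKM in EGFP 8-cell embryos, and none of them reached 1 FPKM.

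The promoters of Cdkn1a and Ccng1 are shown because they held the closest matches to the p53 binding site among the 10 genes. p53 binds DNA as a tetramer, at a pair of adjoining copies of its consensus decamer, and the search allowed a spacer of at most 1 base and at most 3 mismatches over the 20 bases of the pair. The consensus is its own reverse complement, so that each search covered both strands. Sequences are the 250 bases before the annotated start, 5′ to 3′ on the gene's strand, from RefSeq on GRCm38.p6, with the paired site in capitals. The Cdkn1a window is chr17:29090729-29090978 on the plus strand and the Ccng1 window is chr11:40755287-40755536 on the minus strand.
Cdkn1a: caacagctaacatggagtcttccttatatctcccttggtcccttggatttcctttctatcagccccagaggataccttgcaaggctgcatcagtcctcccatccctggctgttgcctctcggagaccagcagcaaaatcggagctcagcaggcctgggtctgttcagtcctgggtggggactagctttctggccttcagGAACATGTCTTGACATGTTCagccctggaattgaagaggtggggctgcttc
Ccng1: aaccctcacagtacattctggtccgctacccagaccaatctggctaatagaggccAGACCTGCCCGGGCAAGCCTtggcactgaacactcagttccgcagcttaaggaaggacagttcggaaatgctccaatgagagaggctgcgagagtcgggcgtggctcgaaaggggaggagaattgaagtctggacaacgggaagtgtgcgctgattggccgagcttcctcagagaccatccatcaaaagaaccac

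In Cdkn1a the site lay at chr17:29090928-29090947, 32 bases before the upstream of 2 annotated starts and 2822 bases before the downstream one, with 1 mismatch to the consensus pair. In Ccng1 it lay at chr11:40755462-40755481, 176 bases before the start used for its window, also with 1 mismatch. Trp53 and Sesn1 held weaker matches, with 3 mismatches each, at chr11:69580284-69580303 (56 bases before the start) and at chr10:41887266-41887285 (154 bases before the more downstream start of Sesn1). For Ccng1 and Trp53 the start used lies inside the gene span given below, and the site is closer to the outer end of that span. The 4 sites are set side by side, all on the strand of their gene.
Cdkn1a site: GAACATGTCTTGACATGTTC
Ccng1 site: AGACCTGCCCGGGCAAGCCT
Trp53 site: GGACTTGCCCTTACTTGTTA
Sesn1 site: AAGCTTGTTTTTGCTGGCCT
A paired site with up to 3 mismatches was thus found in 4 of the 10 genes and in 2.65% of 27025 genes with a promoter in the same table. A single decamer with at most 1 mismatch was found in 7 of the 10 genes and in 48.1% of all genes. No paired site was found in the windows of Mdm2, Btg2, Sesn2, Gadd45a, Plk2 and Phlda3, which says only that these letters do not occur there. A match of letters is a description and does not show that p53 was bound in these embryos.

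The comparison of p150DN with EGFP embryos at the 8-cell stage addresses what interference with CAF-1 does to gene expression. Of the 10 genes, 9 were higher in p150DN embryos, none was lower and Sesn1 did not pass the test (limma on log2(FPKM + 1), two-sided, Benjamini-Hochberg adjusted p below 0.05 over all genes tested). Of all 11730 genes tested, 24.6% were called higher and 9.68% lower. At an unadjusted limma p below 0.05 the counts were also 9 higher and 0 lower. The median log2 fold change was 1.70 over the 10 genes and 0.19 over all genes. All 10 genes passed the filter on low values, but Btg2 and Gadd45a passed it only together with the p150DN libraries, where they were high, so that their presence among the tested genes was not independent of a difference. Of the other 8 genes, 7 were higher. In bulk libraries, fewer cells that express a gene and less of its RNA per cell cannot be told apart. The labels do not say that replicates came from separate cultures. A p-value here therefore only sets a difference against the scatter of libraries within groups, which may be technical.

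**Figure D1:**
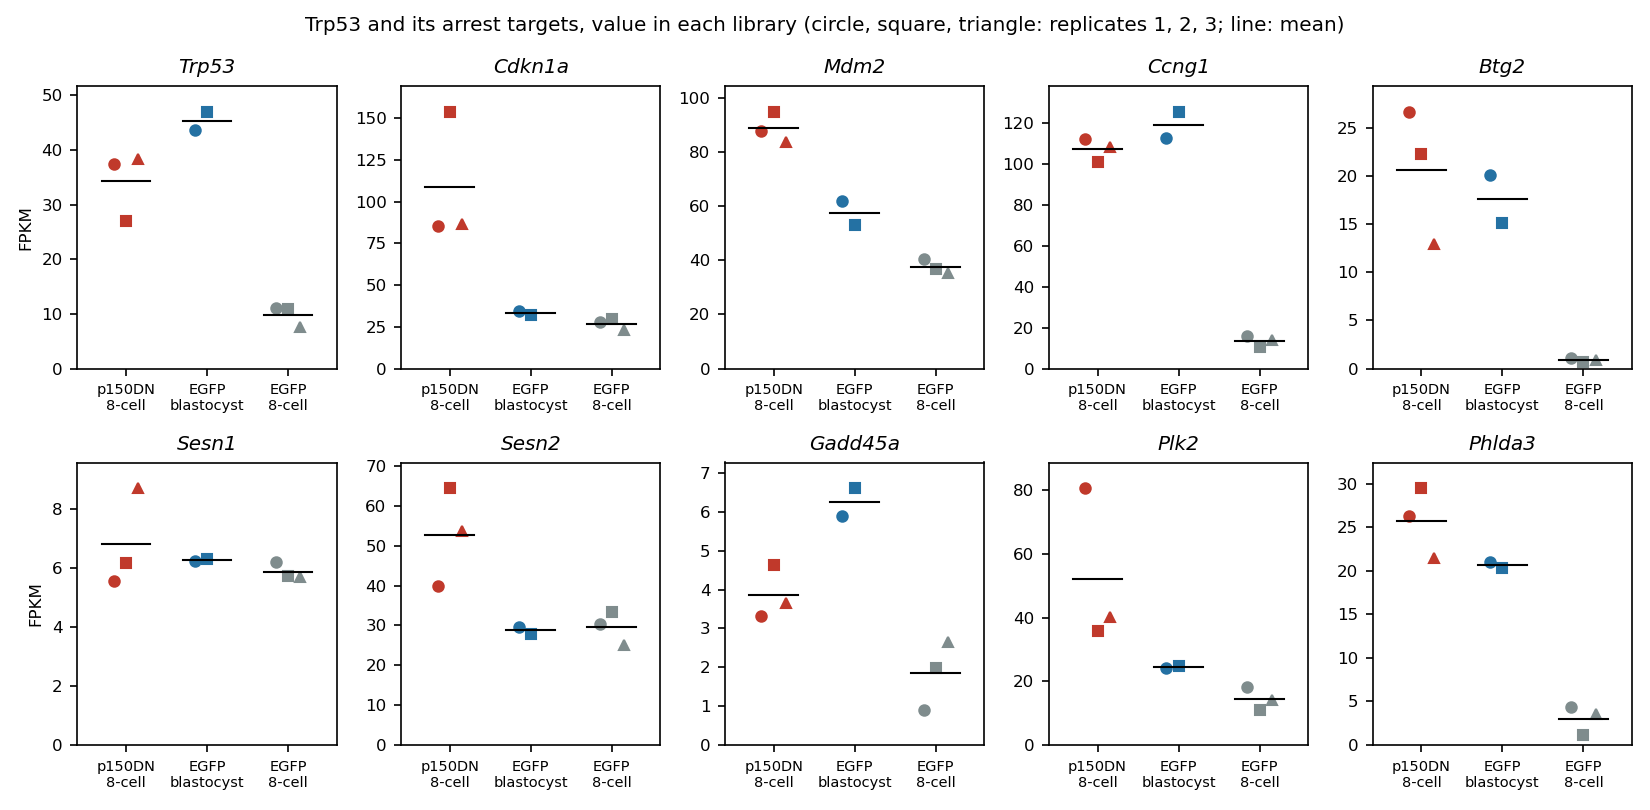
FPKM of each of the 10 genes in every library, with p150DN 8-cell embryos on the left, then EGFP blastocysts, then EGFP 8-cell embryos. Points are libraries and bars are group means. For 9 genes all p150DN points lie above all EGFP 8-cell points, and for Sesn1 the groups overlap.

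Trp53 (chr11:69580348-69591873, plus strand) stood at 37.4, 27.0 and 38.3 FPKM in p150DN 8-cell embryos, at 43.6 and 47.0 FPKM in blastocysts and at 11.1, 10.9 and 7.64 FPKM in EGFP 8-cell embryos. The blastocysts had the most Trp53 RNA, the p150DN embryos came close below them, and no library of one group overlapped another group. Trp53 averaged 34.2 ± 6.30 FPKM in p150DN embryos and 9.86 ± 1.92 FPKM in EGFP 8-cell embryos (n = 3 each, ± SD), and the log2 fold change with its SE was 1.70 ± 0.20 (limma adjusted p = 0.000625). The RNA of the transcription factor itself was therefore among the genes that were higher.

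Mdm2 (chr10:117688875-117710758, minus strand) encodes the ubiquitin ligase that marks p53 for degradation. It stood at 87.8, 94.9 and 83.5 FPKM in p150DN embryos, at 61.8 and 53.2 FPKM in blastocysts and at 40.4, 36.9 and 35.4 FPKM in EGFP 8-cell embryos. The 3 groups followed each other without overlap, and Mdm2 was the most abundant of the 10 RNAs per kilobase in EGFP 8-cell embryos. Its log2 fold change between p150DN and EGFP 8-cell embryos was 1.22 ± 0.12 (limma adjusted p = 0.000345).

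Cdkn1a (chr17:29090979-29100722, plus strand) encodes p21, which binds and blocks cyclin-dependent kinases and is the main effector of arrest in G1. It stood at 85.2, 154 and 86.9 FPKM in p150DN embryos, at 34.3 and 31.9 FPKM in blastocysts and at 28.1, 30.0 and 22.8 FPKM in EGFP 8-cell embryos. All p150DN libraries were above every other library, and replicate 2, which had the least Trp53 of the p150DN libraries, had the most Cdkn1a. Cdkn1a averaged 109 ± 39.2 FPKM in p150DN embryos and 27.0 ± 3.71 FPKM in EGFP 8-cell embryos (n = 3 each, ± SD). Its log2 fold change was 1.92 ± 0.23 (limma adjusted p = 0.000679). By mean Cdkn1a ranked as the most abundant of the 10 RNAs per kilobase in p150DN embryos, but among single libraries only in replicate 2. In replicates 1 and 3 Ccng1 was above it, at 112 and 109 FPKM.

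Ccng1 (chr11:40748552-40755309, minus strand) encodes cyclin G1, an unusual cyclin that works with the phosphatase PP2A to regulate Mdm2. Its levels were 112, 101 and 109 FPKM in p150DN embryos, 113 and 126 FPKM in blastocysts and 15.9, 10.4 and 14.0 FPKM in EGFP 8-cell embryos. p150DN embryos and blastocysts were both far above EGFP 8-cell embryos and close to each other. The mean in p150DN embryos was 8.01 times that in EGFP 8-cell embryos, with a log2 fold change of 2.93 ± 0.16 (limma adjusted p = 4.42e-05).

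Btg2 (chr1:134074865-134079155, minus strand) encodes an antiproliferative protein that brings mRNAs to the CCR4-NOT deadenylase. It stood at 26.7, 22.2 and 13.0 FPKM in p150DN embryos, at 20.2 and 15.1 FPKM in blastocysts and at 1.09, 0.722 and 0.906 FPKM in EGFP 8-cell embryos. By mean it was the least abundant of the 10 RNAs in EGFP 8-cell embryos, although Gadd45a was lower in replicate 1 (0.902 FPKM). Btg2 rested there on 45 to 70 fragments per library, against 663 to 1676 fragments in p150DN libraries. The mean in p150DN embryos was 22.8 times that in EGFP 8-cell embryos. On the log2 scale the fold change was 3.45 ± 0.26 (limma adjusted p = 0.000165), which the added 1 FPKM makes smaller than the ratio of means, and it was 4.32 with 0.1 FPKM added.

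Plk2 (chr13:110395044-110400844, plus strand) encodes a polo-like kinase that acts in centriole duplication and in stress responses. It stood at 80.7, 35.8 and 40.2 FPKM in p150DN embryos, at 24.3 and 24.7 FPKM in blastocysts and at 18.4, 10.9 and 14.3 FPKM in EGFP 8-cell embryos. The groups did not overlap, and p150DN replicate 1 stood well above the other p150DN libraries. Its log2 fold change was 1.71 ± 0.30 (limma adjusted p = 0.00352), and it was 2.42 when replicate 1 alone represented the p150DN embryos.

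Gadd45a (chr6:67035096-67037407, minus strand) encodes a stress protein that binds PCNA and the kinase Cdk1 and takes part in arrest before mitosis. It was the least abundant of the 10 RNAs in p150DN embryos, at 3.33, 4.64 and 3.65 FPKM, against 5.91 and 6.61 FPKM in blastocysts and 0.902, 1.98 and 2.66 FPKM in EGFP 8-cell embryos. The p150DN libraries lay between the other groups without overlap. The lowest value, in EGFP 8-cell replicate 1, rested on 23 fragments, with an exact Poisson interval at 95% of 14.6 to 34.5 that covers counting error only. The log2 fold change of 0.82 ± 0.26 passed narrowly (limma adjusted p = 0.0414), and the call was lost under 10 of 15 alternative settings, with adjusted p from 0.0249 to 0.271 over the 15. Gadd45a shares 809 bases with the antisense transcript E230016M11Rik, and since the strand setting of the counting was not given in the sources used here, its values are uncertain. E230016M11Rik stood at 0.808, 1.04 and 0.411 FPKM in p150DN embryos, at 1.11 and 1.39 FPKM in blastocysts and at 0.245, 0.561 and 0.675 FPKM in EGFP 8-cell embryos.

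Sesn1 and Sesn2 encode sestrins, stress proteins that restrain the growth kinase complex mTORC1. Sesn2 (chr4:132492804-132510456, minus strand) stood at 39.8, 64.5 and 53.8 FPKM in p150DN embryos, at 29.7 and 27.8 FPKM in blastocysts and at 30.4, 33.4 and 25.2 FPKM in EGFP 8-cell embryos. Every p150DN library was above every EGFP library, and the blastocyst values lay inside the range of EGFP 8-cell embryos. Between p150DN and EGFP 8-cell embryos its log2 fold change was 0.79 ± 0.19 (limma adjusted p = 0.0134). That call was lost with median-of-ratios scaling (0.50, limma adjusted p = 0.0519) and with p150DN replicates 2 and 3 both left out (0.42, limma adjusted p = 0.180).

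Sesn1 (chr10:41810574-41908436, plus strand) stood at 5.56, 6.17 and 8.71 FPKM in p150DN embryos, at 6.25 and 6.31 FPKM in blastocysts and at 6.21, 5.71 and 5.70 FPKM in EGFP 8-cell embryos. The libraries of p150DN and EGFP 8-cell embryos overlapped, and p150DN replicate 3 stood above the rest. Its log2 fold change of 0.16 ± 0.19 (limma adjusted p = 0.539) had a 95% interval of -0.28 to 0.60, and its sign turned with median-of-ratios scaling (-0.09) and quantile normalization (-0.16).

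Phlda3 (chr1:135766085-135769134, plus strand) encodes a small lipid-binding protein that keeps the survival kinase Akt from the membrane. It stood at 26.3, 29.5 and 21.4 FPKM in p150DN embryos, at 21.1 and 20.3 FPKM in blastocysts and at 4.32, 1.18 and 3.56 FPKM in EGFP 8-cell embryos. p150DN embryos and blastocysts were far above EGFP 8-cell embryos, among which replicate 2 was lowest, with 35 fragments (exact Poisson interval 24.4 to 48.7). The mean in p150DN embryos was 8.52 times that in EGFP 8-cell embryos, with a log2 fold change of 2.82 ± 0.32 (limma adjusted p = 0.000563).

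**Figure D2:**
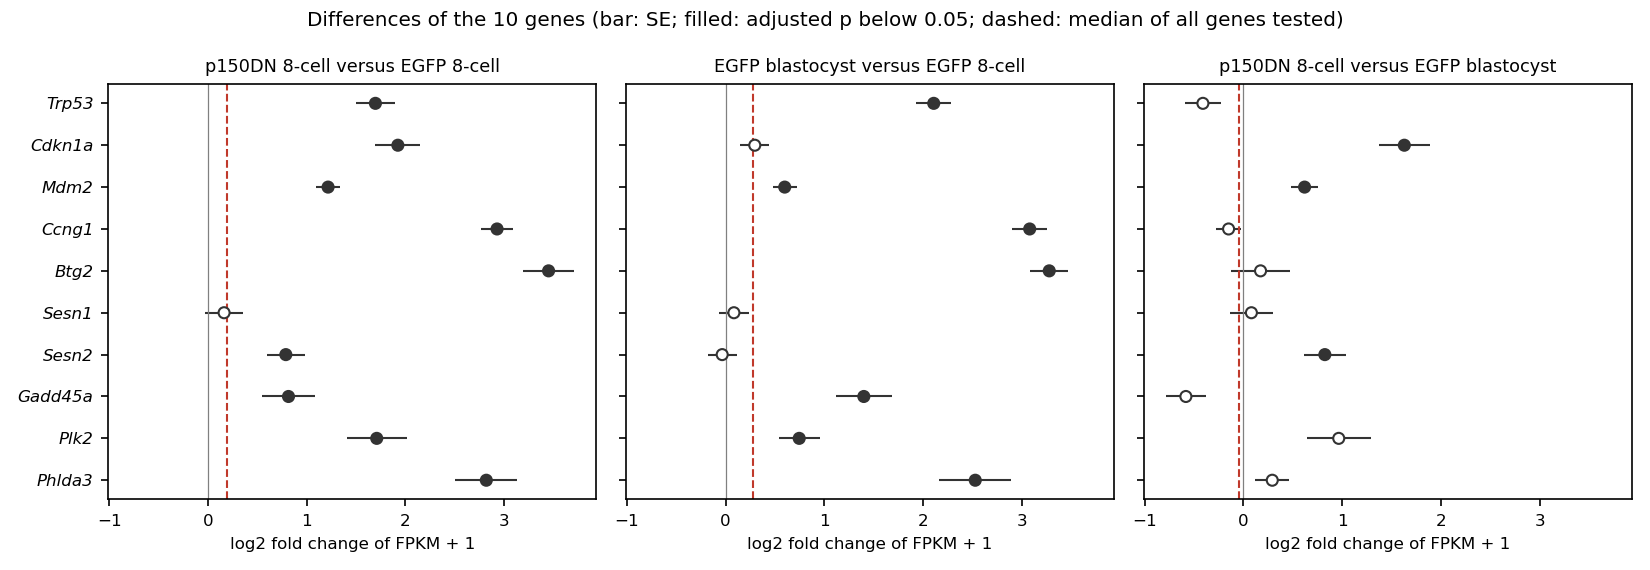
Log2 fold change of each of the 10 genes on the log2(FPKM + 1) scale in the 3 comparisons, with bars of 1 SE. Filled points have a limma adjusted p below 0.05. Between p150DN and EGFP 8-cell embryos 9 genes are filled and to the right of 0, from 0.79 for Sesn2 to 3.45 for Btg2, while Sesn1 is open at 0.16.

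Groups that did not overlap were counted as well. All p150DN libraries lay above all EGFP 8-cell libraries for 9 of the 10 genes, against 34.3% of all genes tested, and below them for none, against 15.5%. Other scalings lowered the median and the share of higher calls. The median of all genes was -0.06 with median-of-ratios scaling and -0.03 with quantile normalization, and the share of called genes that were higher was 43.9% and 49.3%, against 71.8% with the deposited values. Relative to the median of all genes in the deposited values, the log2 fold changes of the 9 genes higher in p150DN embryos ran from 0.60 for Sesn2 to 3.26 for Btg2.

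**Figure D3:**
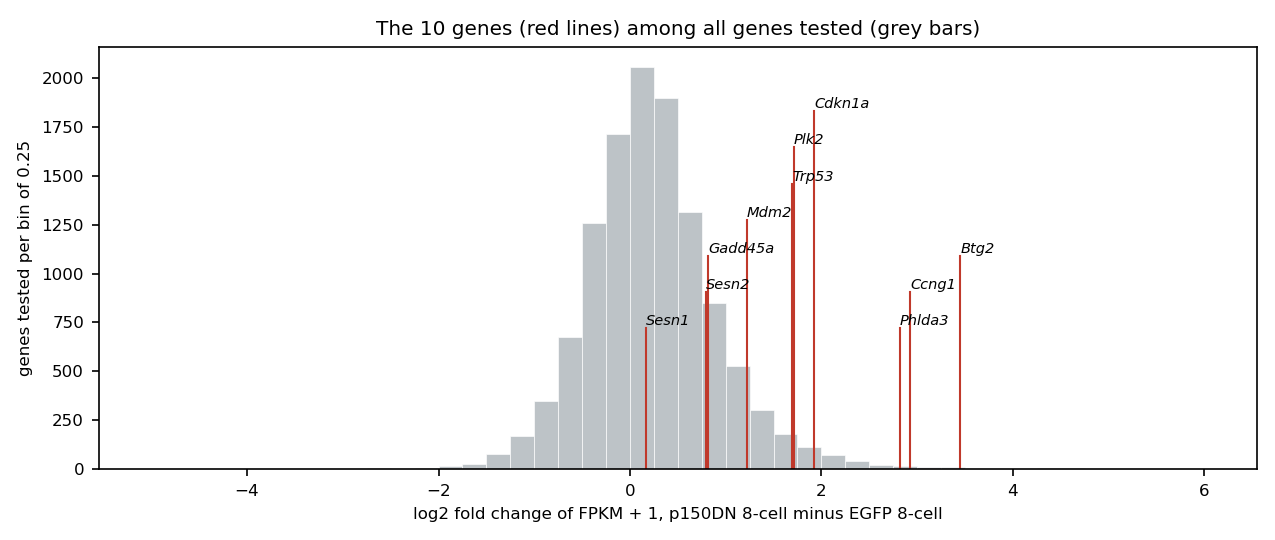
Distribution of log2 fold changes of all 11730 genes tested between p150DN and EGFP 8-cell embryos, with the 10 genes marked. The median of all genes is 0.19. Btg2, Ccng1 and Phlda3 lie furthest to the right, at 3.45, 2.93 and 2.82, and Sesn1 lies at 0.16.

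The EGFP groups show what the same genes do between the 8-cell stage and the blastocyst without p150DN. Of the 10 genes, 7 were higher in blastocysts, none was lower, and Cdkn1a, Sesn1 and Sesn2 did not pass the test, while of all 12199 genes tested 42.6% were higher and 24.9% lower. Blastocyst libraries lay above all EGFP 8-cell libraries for 9 of the 10 genes, against 49.3% of all genes, and below them for none, against 30.3%. The median log2 fold change was 1.07 over the 10 genes and 0.28 over all genes. Btg2 passed the filter only together with the blastocyst libraries, and 6 of the other 9 genes were higher. At an unadjusted limma p below 0.05 the counts were again 7 higher and 0 lower.

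Trp53 RNA averaged 45.3 ± 2.38 FPKM in blastocysts (SD, n = 2) and 9.86 ± 1.92 FPKM in EGFP 8-cell embryos (n = 3, SD), with a log2 fold change of 2.11 ± 0.18 (limma adjusted p = 9.16e-05). Btg2 (3.28 ± 0.19, limma adjusted p = 3.19e-05), Ccng1 (3.08 ± 0.18, limma adjusted p = 3.12e-05) and Phlda3 (2.53 ± 0.37, limma adjusted p = 0.000845) had the largest log2 fold changes of the 10 genes here too. Gadd45a (1.40 ± 0.28, limma adjusted p = 0.00396), Plk2 (0.75 ± 0.21, limma adjusted p = 0.0156) and Mdm2 (0.60 ± 0.12, limma adjusted p = 0.00405) were higher by less. The Plk2 call was lost under 5 of 14 alternative settings, with adjusted p up to 0.109, and that of Gadd45a without blastocyst replicate 2 (limma adjusted p = 0.0549).

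Cdkn1a averaged 33.1 ± 1.66 FPKM in blastocysts (SD, n = 2) and 27.0 ± 3.71 FPKM in EGFP 8-cell embryos (n = 3, SD). The blastocyst values lay just above those of EGFP 8-cell embryos, and the log2 fold change of 0.29 ± 0.15 did not pass (95% interval -0.05 to 0.64, limma adjusted p = 0.111). For Sesn1 the log2 fold change was 0.08 ± 0.15 (95% interval -0.27 to 0.44, limma adjusted p = 0.637), with a negative sign under median-of-ratios scaling (-0.11) and quantile normalization (-0.34). For Sesn2 it was -0.04 ± 0.15 (95% interval -0.38 to 0.31, limma adjusted p = 0.842), with its sign turned when blastocyst replicate 2 (0.01) or EGFP 8-cell replicate 2 (0.05) was left out. This comparison and the one of p150DN with EGFP 8-cell embryos share the EGFP 8-cell libraries, so that their fold changes are not independent of each other.

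p150DN 8-cell embryos and EGFP blastocysts were also compared directly, which involves both the stage and the introduced protein. Cdkn1a, Mdm2 and Sesn2 were higher in p150DN embryos, none of the 10 genes was lower, and 7 did not pass the test, while 11.9% of all 12648 genes tested were higher and 14.2% lower. At an unadjusted p below 0.05, 4 of the 10 genes were higher and 1 was lower. p150DN libraries lay above both blastocyst libraries for 5 of the 10 genes, against 27.1% of all genes, and below them for 3, against 33.8%.

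Cdkn1a had the largest difference of the 10 genes, with 109 ± 39.2 FPKM in p150DN embryos (n = 3, SD) and 33.1 ± 1.66 FPKM in blastocysts (SD, n = 2), the log2 fold change being 1.63 ± 0.26 (limma adjusted p = 0.00833). The log2 fold change was 0.62 ± 0.14 for Mdm2 (limma adjusted p = 0.0207) and 0.82 ± 0.21 for Sesn2 (limma adjusted p = 0.0300). All of these calls were lost when either blastocyst library was left out, with limma adjusted p of 0.0773 and 0.0956 for Cdkn1a, and the number of genes called in all then dropped to 116 without replicate 1 and 79 without replicate 2, against 3301. Sesn2 also lost its call with no filter (limma adjusted p = 0.0681), without p150DN replicate 2 (0.0537), without replicate 3 (0.0731) and without both (0.0994), and Mdm2 without both (0.0764). Plk2, also above both blastocyst libraries, had a log2 fold change of 0.97 ± 0.32 (limma adjusted p = 0.0648), which passed under 4 alternatives, with adjusted p of 0.00598 to 0.0441. Trp53 (-0.41 ± 0.19, limma adjusted p = 0.136), Ccng1 (-0.15 ± 0.13, limma adjusted p = 0.402) and Gadd45a (-0.58 ± 0.20, limma adjusted p = 0.0704) lay below both blastocyst libraries without passing. The 95% interval for Trp53 was -0.85 to 0.02 and that for Ccng1 was -0.45 to 0.15. Phlda3 (0.29 ± 0.17, limma adjusted p = 0.236) lay above both blastocyst libraries, and Btg2 (0.17 ± 0.30, limma adjusted p = 0.685) and Sesn1 (0.08 ± 0.22, limma adjusted p = 0.803) overlapped with them. The signs for Btg2 and Sesn1 turned in some alternatives, with Btg2 at -0.03 without p150DN replicate 1.

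The order of the 10 RNAs by mean FPKM differed between the groups. In p150DN embryos it ran Cdkn1a, Ccng1, Mdm2, Sesn2, Plk2, Trp53, Phlda3, Btg2, Sesn1, Gadd45a, in blastocysts Ccng1, Mdm2, Trp53, Cdkn1a, Sesn2, Plk2, Phlda3, Btg2, Sesn1, Gadd45a, and in EGFP 8-cell embryos Mdm2, Sesn2, Cdkn1a, Plk2, Ccng1, Trp53, Sesn1, Phlda3, Gadd45a, Btg2. Neighbours whose libraries overlap are not ordered beyond their spread. In p150DN embryos Cdkn1a (85.2 to 154 FPKM) overlapped with Ccng1 (101 to 112 FPKM) and with Mdm2 (83.5 to 94.9 FPKM). Ccng1 lay above Mdm2 without overlap. Sesn2 overlapped with Plk2, Plk2 with Trp53, Trp53 with Phlda3 and Phlda3 with Btg2. In blastocysts the only overlapping neighbours were Sesn1 (6.25 to 6.31 FPKM) and Gadd45a (5.91 to 6.61 FPKM). In EGFP 8-cell embryos Sesn2 overlapped with Cdkn1a, Plk2 with Ccng1, Ccng1 with Trp53, Phlda3 with Gadd45a and Gadd45a with Btg2. Within the p150DN group the coefficient of variation was 47.5% for Plk2 and 36.1% for Cdkn1a, against 5.35% for Ccng1. Replicate 2 was the highest p150DN library for Cdkn1a, Mdm2, Sesn2, Gadd45a and Phlda3 and the lowest for Trp53, Ccng1 and Plk2, so that no p150DN library was the highest for all 10 genes.

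The level of each target was also set against Trp53 in the same library, a ratio of 2 FPKM values. All ratios share the Trp53 value, which was highest in blastocysts and lowest in EGFP 8-cell embryos. A lower ratio therefore need not mean less RNA of the target. Cdkn1a RNA was 2.28, 5.71 and 2.27 times Trp53 RNA in p150DN replicates 1 to 3, 0.680 to 0.786 times in blastocysts and 2.54 to 2.99 times in EGFP 8-cell embryos. Blastocysts thus had the least Cdkn1a RNA per Trp53 RNA, and p150DN and EGFP 8-cell embryos overlapped. For Mdm2 the ratio was 2.18 to 3.52 in p150DN embryos, 1.13 to 1.42 in blastocysts and 3.40 to 4.64 in EGFP 8-cell embryos. Ccng1 and Btg2 instead had their lowest ratios in EGFP 8-cell embryos. The ratio of Ccng1 was 2.83 to 3.75 in p150DN embryos, 2.59 to 2.68 in blastocysts and 0.956 to 1.83 in EGFP 8-cell embryos, and that of Btg2 was 0.338 to 0.825 in p150DN embryos, 0.321 to 0.462 in blastocysts and 0.0665 to 0.119 in EGFP 8-cell embryos. Relative to Trp53 RNA these 2 targets were thus higher in p150DN embryos and in blastocysts than in EGFP 8-cell embryos. For Btg2 the ratios of p150DN embryos and blastocysts overlapped. Sesn2 followed the order of Mdm2 by mean, with a ratio of 1.06 to 2.39 in p150DN embryos, 0.592 to 0.681 in blastocysts and 2.74 to 3.29 in EGFP 8-cell embryos. For Phlda3 it was 0.559 to 1.09 in p150DN embryos, 0.432 to 0.483 in blastocysts and 0.109 to 0.466 in EGFP 8-cell embryos, and only the EGFP groups overlapped. The ratio of Plk2 was 1.05 to 2.16 in p150DN embryos, 0.527 to 0.557 in blastocysts and 1.01 to 1.87 in EGFP 8-cell embryos, lowest in blastocysts. That of Sesn1 was 0.149 to 0.229 in p150DN embryos, 0.134 to 0.143 in blastocysts and 0.527 to 0.746 in EGFP 8-cell embryos, without overlap. For Gadd45a, at 0.0891 to 0.172 in p150DN embryos, 0.135 to 0.141 in blastocysts and 0.0814 to 0.348 in EGFP 8-cell embryos, all groups overlapped.

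**Figure D4:**
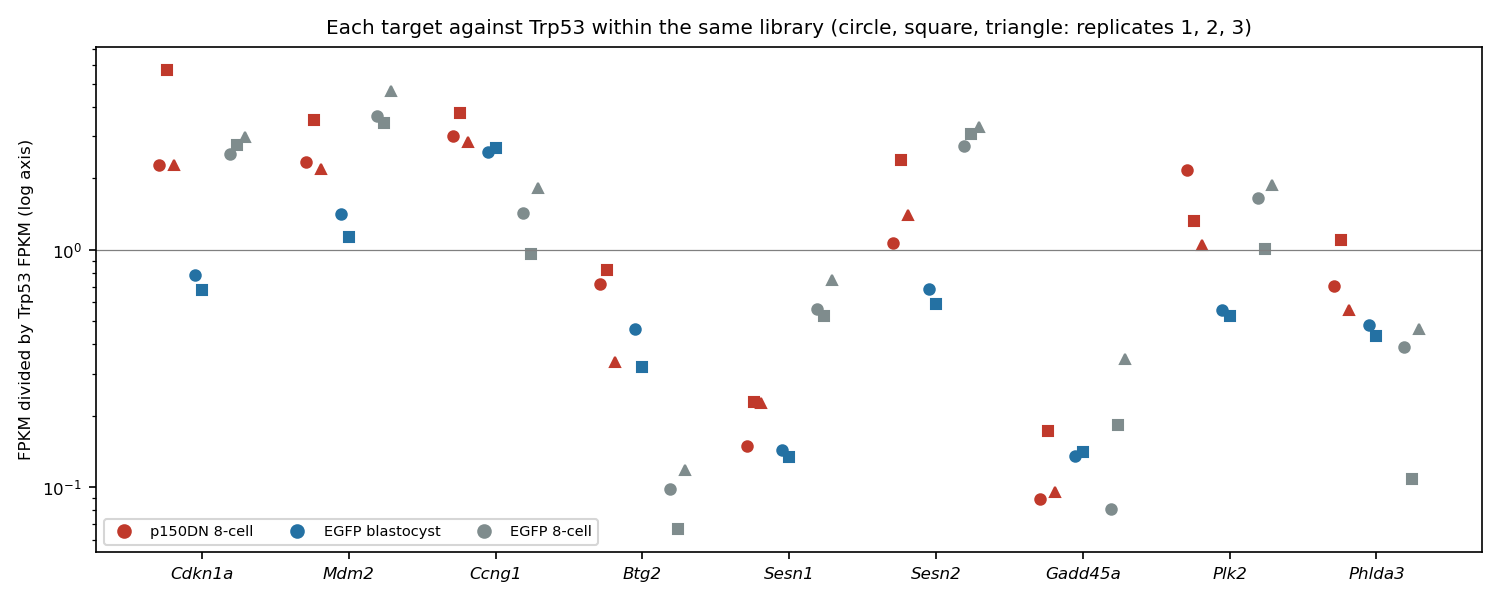
FPKM of each of the 9 targets divided by FPKM of Trp53 in the same library, on a log10 axis, with p150DN 8-cell embryos, EGFP blastocysts and EGFP 8-cell embryos from left to right. For Ccng1 and Btg2 the EGFP 8-cell points are lowest, and for Cdkn1a, Mdm2, Sesn1, Sesn2 and Plk2 the blastocyst points are lowest.

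Across the 8 libraries, log2(FPKM + 1) of Ccng1 and Btg2 correlated most closely among the pairs of the 10 genes (Pearson r = 0.979), and Trp53 correlated with Ccng1 at r = 0.966 but with Cdkn1a at r = 0.505. Cdkn1a correlated with Sesn2 at r = 0.949 and with Mdm2 at r = 0.926. These coefficients describe 8 points that fall into 3 groups and share libraries and scaling. Among 11037 genes, those most like Trp53 were Hbs1l (r = 0.995), Csrp2 (r = 0.994) and Zfp605 (r = 0.993), and those most like Cdkn1a were Bhlhe40 (r = 0.991), Asb12 (r = 0.972) and Abhd18 (r = 0.971). Bhlhe40, a transcriptional repressor of the basic helix-loop-helix family, stood at 6.89, 10.1 and 6.63 FPKM in p150DN embryos, at 1.87 and 1.74 FPKM in blastocysts and at 1.67, 1.97 and 1.46 FPKM in EGFP 8-cell embryos. Its highest library was p150DN replicate 2, as for Cdkn1a, but it was picked for its likeness to Cdkn1a over these same libraries.

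The wider p53 network was described by lists of known regulators and targets. Among 21 genes that act on p53, 3 were higher and 3 lower in p150DN than in EGFP 8-cell embryos, against 24.6% higher and 9.68% lower of all genes tested, and their median log2 fold change was 0.26, against 0.19 over all genes. Ppm1d, a phosphatase that switches p53 off and is itself a p53 target, averaged 5.90 ± 0.972 FPKM in p150DN embryos and 1.82 ± 0.930 FPKM in EGFP 8-cell embryos (n = 3 each, ± SD), and its log2 fold change was 1.33 ± 0.26 (limma adjusted p = 0.00563). It passed the filter on low values only together with the p150DN libraries. Mdm4, the partner of Mdm2 that blocks p53 activity, averaged 30.6 ± 8.57 FPKM in p150DN embryos and 56.8 ± 7.41 FPKM in EGFP 8-cell embryos (-0.90 ± 0.20, limma adjusted p = 0.00905). Ep300, the acetyltransferase that serves p53 as a coactivator, was lower as well (-0.75 ± 0.17, limma adjusted p = 0.0111).

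Of the p53 targets of apoptosis, 13 of 14 were tested, and 7 were higher and 1 lower in p150DN embryos (median log2 fold change 0.77, against 24.6% higher and 9.68% lower of all genes). Pmaip1, which encodes the death protein Noxa, averaged 46.8 ± 16.9 FPKM in p150DN embryos and 2.04 ± 1.42 FPKM in EGFP 8-cell embryos (n = 3 each, ± SD), with a log2 fold change of 4.00 ± 0.36 (limma adjusted p = 0.000291). Perp, a membrane protein of cell junctions and cell death, averaged 78.3 ± 5.66 FPKM in p150DN embryos and 13.9 ± 0.977 FPKM in EGFP 8-cell embryos (2.41 ± 0.13, limma adjusted p = 3.96e-05). Zmat3, an RNA-binding zinc finger protein, had a log2 fold change of 1.93 ± 0.16 (limma adjusted p = 0.000216). Bax, Bbc3, Tnfrsf10b and Trp53inp1 were also higher, and Ei24 was lower.

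Of the p53 targets of DNA repair and metabolism, 17 of 18 were tested, and 9 were higher and 2 lower in p150DN embryos (median log2 fold change 0.75, against 24.6% higher and 9.68% lower of all genes). Of the 9, Fdxr and Ak1 passed the filter on low values only together with the p150DN libraries. The log2 fold change was 2.10 ± 0.23 for Eda2r, a receptor of the tumour necrosis factor family (limma adjusted p = 0.000494), 1.84 ± 0.16 for Gtse1, a microtubule-binding protein (limma adjusted p = 0.000211), and 1.82 ± 0.18 for Ercc5, an endonuclease of nucleotide excision repair (limma adjusted p = 0.000344). The 2 that were lower were Rrm2b and Tigar. Of 14 tested relatives of the 10 genes, 5 were higher and 3 lower (median 0.37, against 24.6% higher and 9.68% lower of all genes), and Mdm4 stands on this list and on that of the regulators. Those higher include Tob1 of the Btg family (2.30 ± 0.29, limma adjusted p = 0.000843), Plk3 (1.89 ± 0.42, limma adjusted p = 0.00924) and Gadd45b (1.69 ± 0.38, limma adjusted p = 0.0101). Plk3 passed the filter on low values only together with the p150DN libraries. The calls of Ppm1d, Plk3 and Gadd45b were lost with p150DN replicates 2 and 3 both left out.

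Among the cyclins, cyclin-dependent kinases and RB-E2F genes, 2 were higher and 5 lower of 18 tested (median -0.18, against 24.6% higher and 9.68% lower of all genes). Cdk2, a kinase that p21 blocks, averaged 36.4 ± 13.2 FPKM in p150DN embryos and 78.3 ± 10.5 FPKM in EGFP 8-cell embryos (-1.13 ± 0.23, limma adjusted p = 0.00672). Cdc25b, the phosphatase that activates mitotic kinases, was lower (-1.26 ± 0.32, limma adjusted p = 0.0162), a call lost under 3 alternative settings with adjusted p up to 0.0623. Cyclin D3, from Ccnd3, was higher (1.17 ± 0.16, limma adjusted p = 0.00130). Of 10 tested stress transcription factors outside the p53 pathway and their targets, 4 were higher, none was lower and 6 did not pass (median 0.56, against 24.6% higher and 9.68% lower of all genes). Those higher were Nfe2l2 (1.62 ± 0.19, limma adjusted p = 0.000679), Asns (1.38 ± 0.18, limma adjusted p = 0.000990), Hmox1 (22.5 ± 13.8 FPKM in p150DN embryos against 3.34 ± 3.69 FPKM in EGFP 8-cell embryos, limma adjusted p = 0.0108) and Nqo1. Hmox1 and Nqo1 passed the filter on low values only together with the p150DN libraries, and the Hmox1 call was lost with p150DN replicates 2 and 3 both left out.

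Between blastocysts and EGFP 8-cell embryos each of the same lists held genes called in both directions. Of the regulators 8 were higher and 8 lower of 21, of the apoptosis targets 5 and 3 of 13, of the repair and metabolism targets 9 and 6 of 17, of the relatives 6 and 5 of 16, of the cell cycle genes 6 and 9 of 18, and of the other stress genes 6 and 2 of 10. Of all genes tested 42.6% were higher and 24.9% lower. Among the genes counted as higher, Fdxr, Ak1, Cdkn1b, Gadd45g, Rbl2 and Nqo1 passed the filter on low values only together with the blastocyst libraries. Pmaip1 averaged 19.0 ± 5.30 FPKM in blastocysts (SD, n = 2) and 2.04 ± 1.42 FPKM in EGFP 8-cell embryos (n = 3, SD), a log2 difference of 2.79 ± 0.36 (limma adjusted p = 0.000532). Ei24 was lower (34.5 ± 1.75 FPKM in blastocysts against 152 ± 27.1 FPKM in EGFP 8-cell embryos), as was Btg4, a relative of Btg2 that serves the clearance of maternal mRNA (-3.42 ± 0.17, limma adjusted p = 2.12e-05). The checkpoint kinase gene Chek2 was lower (30.5 ± 0.439 FPKM in blastocysts against 103 ± 7.33 FPKM in EGFP 8-cell embryos), and so was Ccnb1, which encodes the mitotic cyclin B1 (-1.50 ± 0.10). Fdxr, a mitochondrial reductase gene, was higher (2.34 ± 0.20) but is among those that passed the filter only through the blastocysts. Nfe2l2, the master regulator of the antioxidant response, was higher (21.7 ± 6.11 FPKM in blastocysts against 2.52 ± 0.329 FPKM in EGFP 8-cell embryos).

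**Figure D5:**
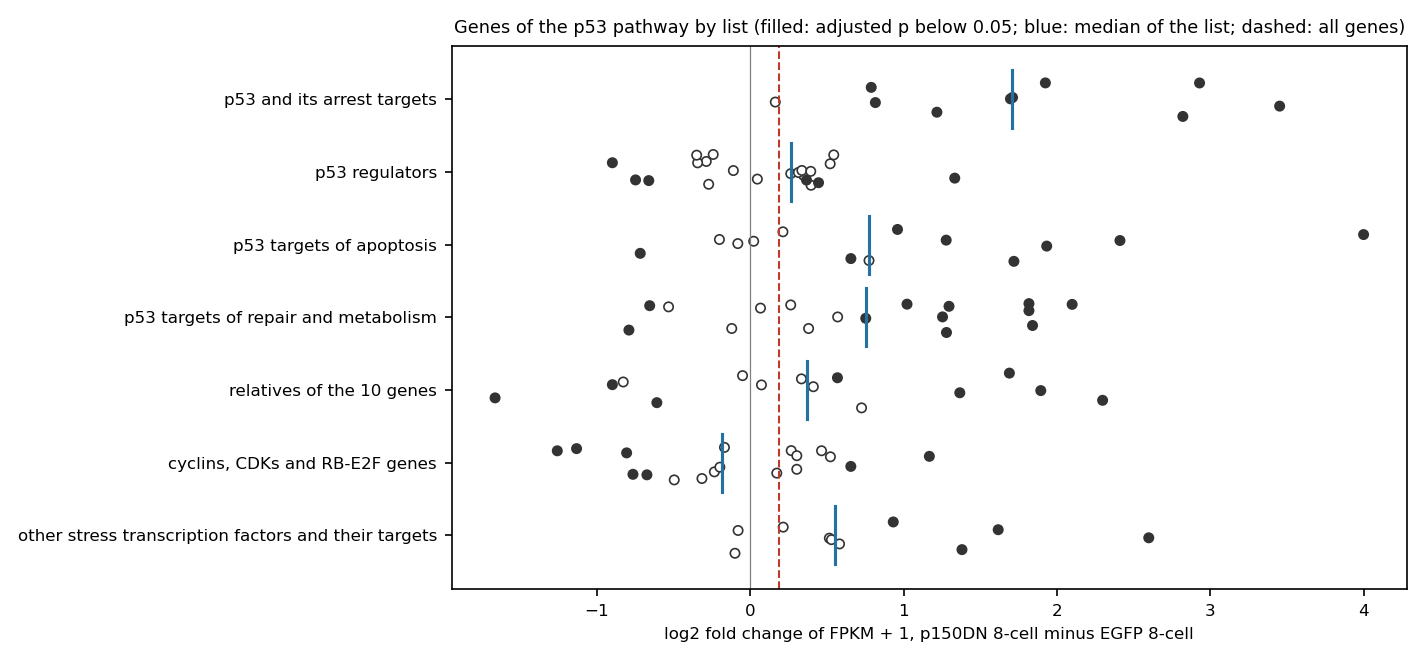
Log2 fold changes of the tested genes of the 10 genes and of 6 lists around p53, for p150DN against EGFP 8-cell embryos. Points are genes, thick bars are medians of a list and the dashed line is the median of all genes, 0.19. The median of the 10 genes is 1.70.

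Markers of developmental state were set beside these results. The summed level of 6 trophectoderm markers was 414 to 600 FPKM in p150DN embryos, 1348 to 1414 FPKM in blastocysts and 101 to 119 FPKM in EGFP 8-cell embryos, and 5 of the 6 were higher both in p150DN embryos and in blastocysts than in EGFP 8-cell embryos, in the same order as Trp53. The summed level of 4 inner cell mass markers was 463 to 692 FPKM in p150DN embryos, 838 to 889 FPKM in blastocysts and 318 to 474 FPKM in EGFP 8-cell embryos, where the 8-cell groups overlapped. Singly, 3 of the 4 (Nanog, Sox2 and Pou5f1) were called higher in p150DN embryos and also in blastocysts. Tdgf1 was not called in p150DN embryos and was lower in blastocysts. Sox2 averaged 0.184 FPKM in EGFP 8-cell embryos and passed the filter only through the group where it was higher. The 5 oocyte transcripts summed to 22.7 to 53.4 FPKM in p150DN embryos, 6.17 to 7.0 FPKM in blastocysts and 52.6 to 67.6 FPKM in EGFP 8-cell embryos, and here too the 8-cell groups overlapped, with 1 of 5 lower in p150DN embryos and 5 of 5 lower in blastocysts. The 4 primitive endoderm markers summed to 102 to 146 FPKM in p150DN embryos, 143 to 151 FPKM in blastocysts and 117 to 177 FPKM in EGFP 8-cell embryos, and these groups overlapped. Single markers went in both directions. Gata4 averaged 7.60 FPKM in p150DN embryos, 0.715 FPKM in blastocysts and 48.4 FPKM in EGFP 8-cell embryos, and was called lower in both. Pdgfra was called higher in both and Gata6 in neither. Sox17 was not tested in p150DN embryos and was higher in blastocysts, through which alone it passed the filter. The 4 sperm transcripts summed to 0.432 to 2.26 FPKM in p150DN embryos, 0.377 to 0.811 FPKM in blastocysts and 0.249 to 0.616 FPKM in EGFP 8-cell embryos. The part of these markers in the levels of the p53 genes was not tested.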

How the data were processed

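RNA-seq values of 8 libraries were used, and the other 65 of the 73 samples of the series were not analysed here. Embryos were cultured in KSOM and a SMART-seq kit that keeps the strand was used on total RNA, per the labels' protocols. The authors deposited FPKM values per gene, 1 column per library, per the file headers. HISAT2, Bowtie2, featureCounts, SAMtools and Trim Galore, with no roles, and the build mm10 are named in the submitters' processing notes. Annotation and strand setting were not given in the sources used here. 8-cell columns named without a treatment were taken as EGFP, the only other 8-cell RNA group of the labels. FPKM fixes the total per library, so a change in RNA per embryo cannot be seen. Library totals were recovered from the FPKM of genes under 300 bases. The fragments of each gene then came from the smallest length that made its values whole (tolerance 0.02 fragments). Such a length was found for all 23316 genes above 0. For genes seen in few libraries it can be found by accident, so this is no check of their fragments.

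limma 3.58.1 in R 4.3.3 (eBayes with trend) was run on log2(FPKM + 1) over the libraries of each comparison, for genes that reached 1 FPKM in 3 or more (p150DN against EGFP 8-cell) or 2 or more libraries, and tested on simulated data. With 3 libraries against 3, an exact permutation test could not go below p = 0.1, so none was used. Replicates correlated at r of 0.977 to 0.992 and differed beyond counting noise. The 10 genes and all lists were chosen with earlier results of these data known, and their counts are descriptions. Named were the 10 genes, Chaf1a, up to 3 called genes per list with the largest changes and groups that did not overlap, and for Trp53 and Cdkn1a the 3 genes of highest r. A few further list members are named as called only. Alternatives covered the pseudocount, the filter, scaling, pooling of all 8 libraries, the variance trend, a replicate block, left-out libraries and, for promoters, the mismatches allowed. Coordinates come from RefSeq on GRCm38.p6, the assembly of mm10, which 24920 symbols matched.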

Additional observations from a re-analysis of the deposited data

How the results depend on the processing

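Between p150DN and EGFP 8-cell embryos, 7 of the 9 higher genes (Trp53, Cdkn1a, Mdm2, Ccng1, Btg2, Plk2 and Phlda3) kept their direction and call under all 16 alternatives, with log2 fold changes of 1.42 to 1.86 for Trp53 and 1.63 to 2.07 for Cdkn1a. The number of the 10 genes called higher was 8 to 9 with 1 library left out, and the number of all genes called was 2538 to 4066, lowest without EGFP 8-cell replicate 1. It was 2483 with p150DN replicates 2 and 3 both left out, where the lone p150DN library is assumed to vary like the others. The log2 fold change of Sesn1, not called, was -0.0898 with median-of-ratios scaling, -0.16 with quantile normalization, -0.0678 without p150DN replicates 2 and 3 and -0.0032 to 0.28 with 1 library left out, lowest without p150DN replicate 3. Between blastocysts and EGFP 8-cell embryos it was -0.11 and -0.34 under the same scalings, and that of Sesn2 was -0.15 to 0.0530 with 1 library left out, above 0 without blastocyst replicate 2 (0.0109) or EGFP 8-cell replicate 2. Between p150DN embryos and blastocysts, the number of all genes called was 3301, 1555 with no filter, 1079 with p150DN replicates 2 and 3 left out and 79 to 4152 with 1 library left out, and of the 10 genes 0 to 4 were then called higher, 0 without either blastocyst library. With median-of-ratios scaling 1 of the 10 genes, Gadd45a, was lower (limma adjusted p = 0.0455). With 1 library left out Sesn1 was at -0.0866 (without p150DN replicate 3) to 0.20 and Btg2 at -0.0332 (without p150DN replicate 1) to 0.46, also below 0 without blastocyst replicate 2 (-0.0249), and Sesn1 was at -0.15 without p150DN replicates 2 and 3. The causes of these shifts were not tested. With at most 2 mismatches the paired p53 site was found in 2 of the 10 genes (0.655% of all genes), and with at most 4 in 4 of them (8.91%).

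Libraries of the same replicate number deviated together weakly between p150DN and EGFP 8-cell embryos (r of 0.04 to 0.09), and r was below 0 in the other pairs. Between p150DN and EGFP 8-cell libraries of unlike number, r ran from -0.105 to 0.070. With 2 or 3 libraries per group, deviations from the group mean are tied to each other. The check therefore cannot decide whether the numbers pair the libraries. With a replicate block 4081 genes were called between p150DN and EGFP 8-cell embryos, 7861 between the EGFP stages and 3072 between p150DN embryos and blastocysts. The block changed no call of the 10 genes in the comparisons with EGFP 8-cell embryos. Between p150DN embryos and blastocysts it brought Plk2 past the threshold (1.1, limma adjusted p = 0.00598) and Sesn1 to -0.0866. Depth limits Gadd45a, with 23 to 182 fragments per library, and in EGFP 8-cell embryos Btg2, with 45 to 70, and Phlda3, with 35 to 132.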
